A study of Mus musculus with 2 samples.

Results

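The genes described here make ribosomes: RNA polymerase I with its initiation factors, the small nucleolar ribonucleoproteins (snoRNPs) that modify ribosomal RNA, and the assembly factors of both ribosomal subunits. They were chosen by symbol from a table of gene counts of mouse pancreatic islets, as the protein-coding genes named Nop, Utp or Rrp with a number, Polr1a to Polr1e, 5 Wdr genes and 15 genes given by name, among them Ncl, Npm1, Fbl, Dkc1, Ubtf and Rrn3. The choice gave 49 of the 44713 genes in the table, and 48 of these had a mean of at least 1 CPM (counts scaled to a library's size) over the libraries. The remaining member, Rrp15, a large subunit factor, had 8 counts in each library and was not compared.

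The study compared db/db with db/m mice, both on the C57BL/6 background, and 1 library of each (2 in all) was analysed here. The db/db library is labelled Lepr-/-, that is, lacking a functional leptin receptor, a common model of obesity and type 2 diabetes. The db/m library is labelled wild type and served as its control. Mice called db/m are commonly heterozygous for the db allele, and the labels do not say whether these were. Age, sex and the number of animals behind a library are not given in the labels. Islets had been separated by collagenase digestion and density centrifugation, and the RNA was depleted of ribosomal RNA before library construction.

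Ribosome production begins in the nucleolus. RNA polymerase I, recruited to ribosomal DNA by UBF (gene Ubtf) and the factor TIF-IA (gene Rrn3), copies a long precursor RNA, which the small subunit processome folds and cuts while box C/D and box H/ACA snoRNPs methylate it and convert uridines to pseudouridines. A separate set of factors, among them the Pes1, Bop1 and Wdr12 complex, matures the large subunit. In the pancreas, acinar cells are known for a large ribosome content, which serves the synthesis of digestive enzymes.

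The libraries held 18233695 counts (db/db) and 16271129 counts (db/m). All 29 acinar markers listed were detected and together took 72.1% (db/db) and 72.4% (db/m) of the counts, and the 7 islet hormone genes 0.193% and 0.147%, although both are labelled islet cells. The hormone genes Sst (8.79-fold), Ppy (6.44-fold), Pyy (5.72-fold) and Gcg (3.99-fold) were called higher and Ins1 (2.11-fold) lower, and of the acinar markers 3 were called lower (Pla2g1b, Amy2b and Amy2a5, by 2.85-fold, 2.54-fold and 2.23-fold). The acinar markers did not share a direction: of the 29, the interval lay above 1 for 8 and below 1 for 20. The ratios below therefore describe bulk RNA in which fewer cells of a type and less RNA per cell cannot be told apart. Of 20 immediate early genes 17 were compared, all with ratios below 1 and 15 at least 2-fold lower, and the 9 heat shock genes were all at least 2-fold lower, with summed ratios of 0.149 and 0.152. The 10 duct markers had a summed ratio of 0.69. Mesenchymal, endothelial and immune markers each summed to between 104 and 177 counts in a library, and no marker of these lists had 0 counts in both. The part of these differences in the results below was not tested. Because each group has 1 library, replicate error is unknown and no p-value is given. Each ratio of db/db over db/m carries a 95% interval for counting error alone, which describes these libraries and not the genotypes.

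No member, whether of ribosome biogenesis or of RNA polymerase I, differed by 2-fold or more after scaling by the trimmed mean of M values (TMM). The calling rule asked for a ratio of at least 2-fold and an interval excluding 1, and 7.87% of the 10300 genes compared met it (3.83% higher and 4.04% lower). Of the 48 members 0 were called higher and 0 lower. With total counts as the scaling 1 member, Rrp36, was called higher, beside 5.48% of all genes higher and 2.69% lower. At a limit of 1.5-fold 2 members were higher (8.63% of all genes) and 5 lower (8.87%). The ratio closest to the limit was that of Rrp36, a small subunit factor, at 1.96 (1.28 to 3.08). The median log2 ratio of the members was -0.06, beside 0.02 over all genes compared, and single members ran from -0.67 (Fbl) to 0.97 (Rrp36). For 38 of the 48 members the whole interval lay between 0.5 and 2, so that a 2-fold difference between these libraries lay outside counting error. The same was true of 71.7% of all genes compared.

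**Figure D1:**
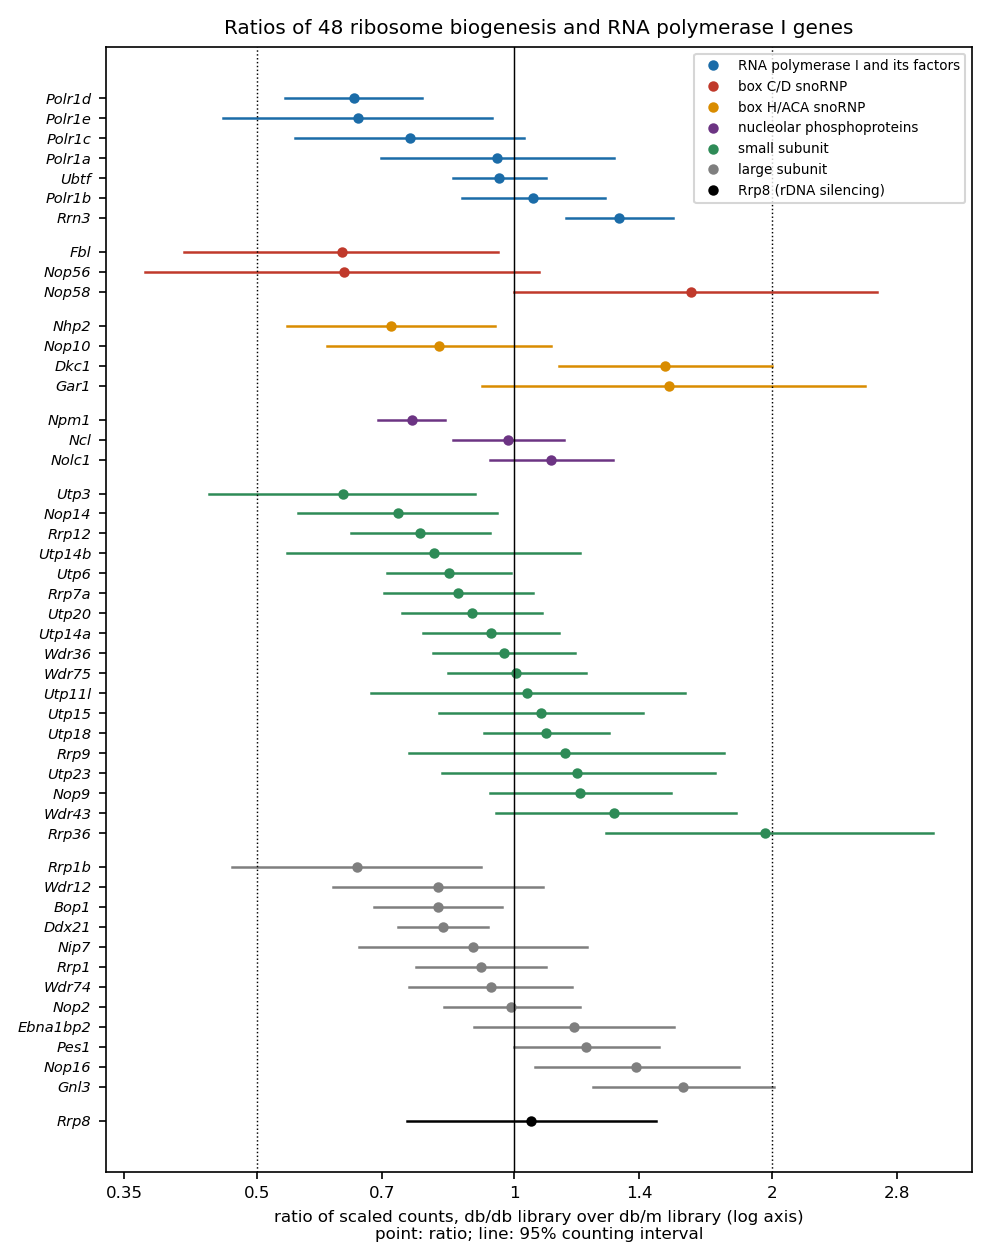
Ratio of scaled counts in the db/db library over the db/m library for 48 genes (points) with 95% counting intervals (lines) on a log axis, grouped by role; dotted lines mark 2-fold. No point passes a dotted line, and Rrp36 at 1.96 comes closest.

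Summed over the 49 genes, the group had 9665 db/db and 8115 db/m counts. That was 0.053% of all counts for db/db (exact binomial interval 0.05195% to 0.05407%) and 0.0499% for db/m (0.04879% to 0.05097%). After scaling, the sums had a ratio of 0.941 (0.914 to 0.97). As a share of the counts outside the acinar and hormone lists, the group took 0.191% (db/db) and 0.181% (db/m). The direction of the sum thus depended on the scale.

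**Figure D2:**
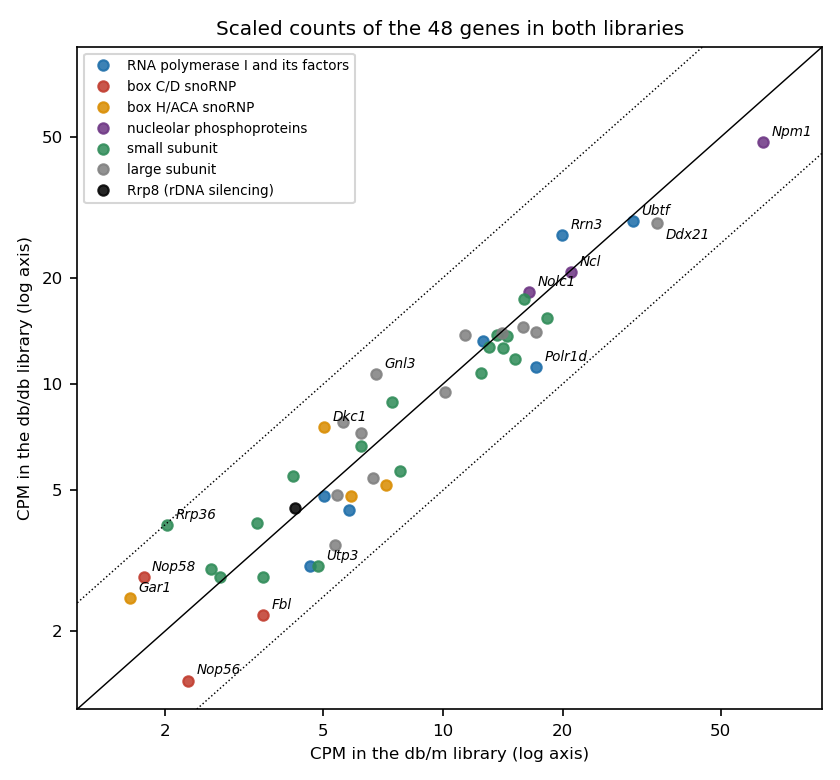
CPM of the 48 genes in the db/m library (x axis) and the db/db library (y axis), both on log axes; the solid line marks equal values and the dotted lines 2-fold. All points lie between the dotted lines, from Nop56 near the lower left corner to Npm1 at 63.9 and 48.5 CPM.

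Smaller differences ran in both directions. The interval lay wholly above 1 for 5 members (10.4%, against 20.7% of all genes compared) and wholly below 1 for 12 members (25%, against 18.2%), and included 1 for 31. These numbers depended on the scaling. With total counts in place of TMM, every log2 ratio was larger by 0.175, the interval lay above 1 for 13 members (27.1%, against 35.2% of all genes) and below 1 for 2 (4.17%, against 9.85%). Under all 4 scalings tried the interval lay above 1 for Rrp36, Gnl3, Dkc1, Nop16 and Rrn3, and below 1 for Npm1 and Polr1d. The 4 scalings are not independent. Relative to TMM, DESeq2 size factors moved every log2 ratio by -0.008, and total counts outside the acinar and hormone genes by 0.164. The 5 genes are thus the TMM set (10.4%, against 20.7% of all genes). The 2 genes are the total-count set (4.17%, against 9.85%).

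**Figure D3:**
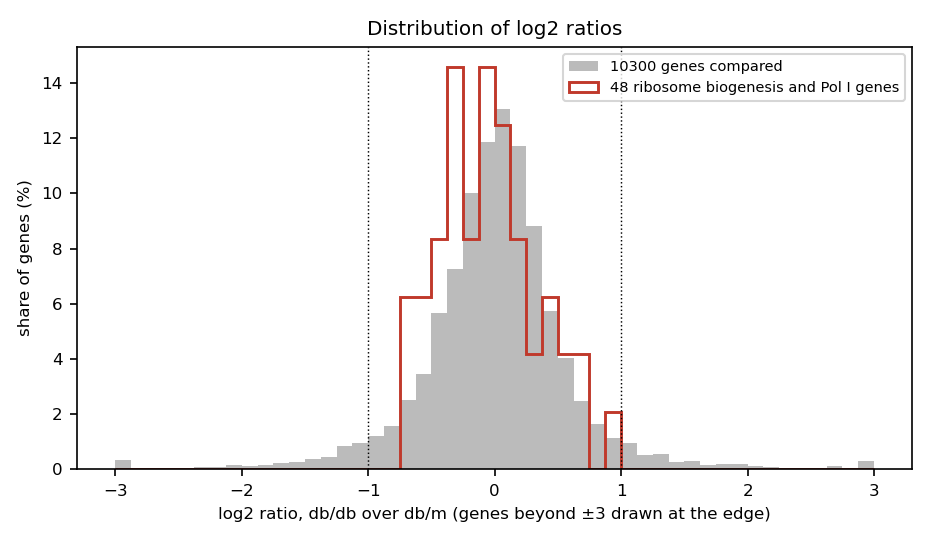
Share of genes (y axis, percent) by log2 ratio of db/db over db/m (x axis) for the 10300 genes compared (grey) and for the 48 ribosome biogenesis and RNA polymerase I genes (red outline); dotted lines mark 2-fold. The 48 genes lie between -0.67 and 0.97, inside the dotted lines, while the grey distribution reaches beyond them on both sides.

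To show what these genes share in sequence, their promoters were searched for letters bound by known factors. RefSeq windows of 300 bases (250 before and 50 after a start site, GRCm38.p6) were found for 41 of the 49 members. The E-box CACGTG, a palindrome recognised by MYC and MAX and by other factors, was in a window of 8 members (19.5%), against 12.9% of the 7451 compared genes with a window. Counted by window, it was in 15.7% of the members' 51 windows and 7.15% of all 32851. The letters CCGGAAG, the core of sites for ETS factors, were on either strand in a window of 14 members (34.1%), against 21.8% of compared genes, and in 29.4% of the members' windows against 8.86% of all windows. No test was made of these shares. Below are the last 80 bases before the start site for some of the members with either match in that stretch, taken from different roles. The sequences are written 5′ to 3′ along the gene's strand. Capitals mark CACGTG and CCGGAAG or its complement CTTCCGG, which do not overlap each other here.
Rrn3 (RNA polymerase I factor, chr16:13780619-13780698, plus strand): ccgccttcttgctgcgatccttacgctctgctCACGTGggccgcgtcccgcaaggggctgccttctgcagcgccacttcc
Polr1c (RNA polymerase I and III subunit, chr17:46248046-46248125, minus strand): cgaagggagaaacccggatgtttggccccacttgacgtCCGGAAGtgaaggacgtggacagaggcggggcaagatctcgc
Gar1 (box H/ACA protein, chr3:129831397-129831476, minus strand): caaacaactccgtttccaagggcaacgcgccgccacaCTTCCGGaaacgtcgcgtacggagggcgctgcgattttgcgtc
Nhp2 (box H/ACA protein, chr11:51619693-51619772, plus strand): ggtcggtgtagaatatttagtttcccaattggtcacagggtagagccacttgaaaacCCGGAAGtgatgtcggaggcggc
Nolc1 (nucleolar phosphoprotein, chr19:46075767-46075846, plus strand): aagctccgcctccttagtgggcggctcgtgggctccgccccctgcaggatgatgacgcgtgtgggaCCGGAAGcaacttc
Rrp36 (small subunit factor, chr17:46674307-46674386, minus strand): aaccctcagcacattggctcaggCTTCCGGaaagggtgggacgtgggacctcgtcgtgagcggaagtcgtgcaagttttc
Utp18 (small subunit factor, chr11:93885767-93885846, minus strand): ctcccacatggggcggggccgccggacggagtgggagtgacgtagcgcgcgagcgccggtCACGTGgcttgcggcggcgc
Nop2 (large subunit methyltransferase, chr6:125131803-125131882, plus strand): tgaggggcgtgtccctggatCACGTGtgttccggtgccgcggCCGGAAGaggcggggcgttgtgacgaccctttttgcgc

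Members with and without a match had overlapping ratios. The 8 members with an E-box had a median log2 ratio of 0.06 (-0.31 to 0.41), with 4 of the 8 above 0, and the 32 compared members with a window but no E-box a median of -0.06 (-0.67 to 0.97). With the ETS letters the medians were -0.01 for 13 members and -0.06 for 27 members without them. Of the sequences above, that of Rrp36 belongs to the member with the highest ratio. Those of Gar1, Rrn3, Nolc1 and Utp18 also belong to members with ratios above 1, and those of Nhp2, Polr1c and Nop2 to members with ratios below 1. Utp14b (ratio 0.805) and Wdr74 (ratio 0.938) also had a match in that stretch, and their sequences are not shown. RefSeq gives Rrp36 another start site, with the same CTTCCGG 37 bases before it, and its stretch is not shown. Other letters searched on both strands were GGGCGG (75.6% of members, 71.4% of compared genes), CCAAT (39% and 42.8%), TATAAA (7.32% and 8.28%) and AAGATGGC, in 0 of the 41 members and 5.92% of compared genes. The GC content of those windows had a median of 58%, against 52.7% for all windows.

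The 7 genes of RNA polymerase I and its factors spanned ratios from 0.649 to 1.33. Rrn3 (chr16:13780699-13814841), whose product TIF-IA makes the polymerase competent to initiate, had 512 db/db and 305 db/m counts, or 26.4 and 19.9 CPM. Its ratio was 1.33 (1.15 to 1.53), the highest of the 7. Ubtf (chr11:102304560-102323649), which encodes the ribosomal DNA binding factor UBF, had 559 and 460 counts and a ratio of 0.96 (0.847 to 1.09), close to equal. The catalytic core was likewise near 1.

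Polr1a, the largest catalytic subunit, had 93 and 77 counts in the db/db and db/m libraries (ratio 0.955, 0.698 to 1.31). Polr1b, the second largest, had 257 and 193 counts (ratio 1.05, 0.87 to 1.27). The ratios of the 3 other subunits among the members were below 1, with none called. Polr1d (chr5:147076715-147111361), a subunit that RNA polymerase III also uses, had 216 and 263 counts, 11.1 and 17.2 CPM, and a ratio of 0.649 (0.54 to 0.78). Polr1c, the partner of Polr1d in both polymerases, had 85 and 89 counts and a ratio of 0.755 (0.554 to 1.03). Polr1e, which encodes a subunit specific to RNA polymerase I, had 59 and 71 counts and a ratio of 0.657 (0.457 to 0.941).

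The box C/D snoRNP proteins, which carry out methylation of the ribose in ribosomal RNA, did not share a direction. Fbl (chr7:28168893-28179269), the methyltransferase fibrillarin, had 43 db/db and 54 db/m counts, with a ratio of 0.629 (0.412 to 0.957). Nop56 (chr2:130274367-130279313), a scaffold protein of the particle, had 28 and 35 counts and a ratio of 0.632 (0.371 to 1.07). Its partner scaffold Nop58 (chr1:59684961-59711510) had 55 and 27 counts and a ratio of 1.61 (0.998 to 2.65). These are among the members with the fewest counts, and no interval of the 3 lay wholly within 2-fold. With total counts the interval of Fbl included 1 (0.465 to 1.08) and that of Nop58 lay above 1 (1.13 to 3).

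Of the box H/ACA proteins, which form the pseudouridine-making particle and are also part of telomerase, a pair was above 1 and a pair below. Dkc1 (chrX:75095854-75109776), the pseudouridine synthase dyskerin, had 146 db/db and 77 db/m counts, with a ratio of 1.5 (1.13 to 2). Gar1 (chr3:129824912-129831407) had 48 and 25 counts and a ratio of 1.52 (0.917 to 2.57). Nhp2 and Nop10, the remaining core proteins, were below 1. Nhp2 had 100 and 110 counts and a ratio of 0.718 (0.542 to 0.951), and Nop10 had 93 and 90 counts and a ratio of 0.817 (0.605 to 1.1). With total counts the interval of Nhp2 included 1 (0.613 to 1.07) and that of Gar1 lay above 1 (1.04 to 2.9).

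Quotients of the counts of 2 genes within a library do not depend on scaling. Such quotients were formed for 38 pairs of the same role group, complex or paralog pair, a step added with the values above in view. The gene with the higher ratio was put first, so the db/db quotient was by construction at least as large as the db/m quotient. That excess reached 2-fold for 6 of the 38 pairs, and its interval excluded 1 for 18. The pairs share genes and are not independent, since 21 of them come from the 7 genes of RNA polymerase I and its factors. Pairs of other genes were not examined, so it is not known whether these counts are high or low. The intervals hold counting error only and are not corrected for the number of pairs, and the values are a description. The counts of Nop58 were 1.28 times those of Fbl in db/db and 0.5 times in db/m, which gave 2.56 (1.33 to 4.94), whereas Nop56 had 0.651 and 0.648 times the counts of Fbl (1, 0.504 to 2). Dkc1 had 1.46 times the counts of Nhp2 in db/db and 0.7 times in db/m, which gave 2.09 (1.39 to 3.13), and Gar1 against Dkc1 was at 1.01 (0.563 to 1.85). For Rrn3 against Polr1d the ratio was 2.04 (1.61 to 2.59), and for Polr1e against Polr1d it was 1.01 (0.672 to 1.52).

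**Figure D4:**
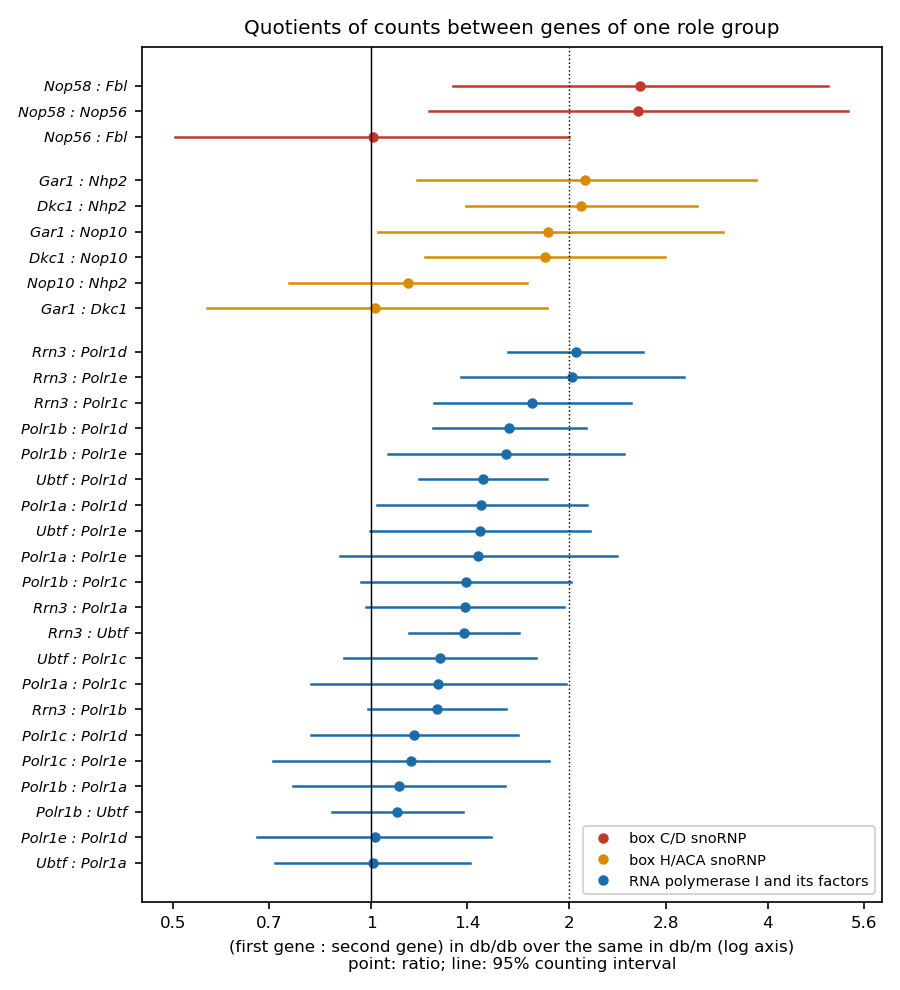
For pairs of genes within the box C/D proteins, the box H/ACA proteins or RNA polymerase I and its factors, the first gene's counts over the second's in the db/db library divided by the same in the db/m library (points, log axis) with 95% counting intervals (lines); pairs are written so that the point lies at or above 1, and the dotted line marks 2-fold. Nop58 stands apart from Fbl at 2.56, while Ubtf and Polr1a at the bottom are at 1.01.

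The intervals of the 3 nucleolar phosphoproteins all lay within 2-fold. Npm1 (chr11:33152498-33164142), nucleophosmin, which takes part in large subunit assembly and export, had 939 db/db and 978 db/m counts, or 48.5 and 63.9 CPM, and a ratio of 0.759 (0.693 to 0.831). Ncl, nucleolin, which binds the precursor RNA, had 401 and 322 counts and a ratio of 0.984 (0.848 to 1.14). Nolc1, a chaperone of snoRNPs, had 352 and 252 counts and a ratio of 1.1 (0.936 to 1.3). Npm1 thus had the lowest ratio of the group. With TMM the intervals of Ncl and Nolc1 included 1, and with total counts that of Nolc1 lay above 1 (1.25, 1.06 to 1.47).

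Among the 18 small subunit factors, 9 had a ratio above 1 and 9 below, with a median log2 ratio of -0.02. Rrp36 (chr17:46666323-46674326), needed for early cleavages of the precursor, had 77 db/db and 31 db/m counts, 3.97 and 2.02 CPM. With TMM its interval was the only one of the 18 wholly above 1. Utp3 (chr5:88554462-88556090), a processome protein, was the lowest with 59 and 74 counts and a ratio of 0.63 (0.44 to 0.899). The intervals of Nop14 (0.731, 0.559 to 0.955), Rrp12 (0.777, 0.644 to 0.937) and Utp6 (0.838, 0.71 to 0.991) also lay below 1. With total counts the intervals of Utp3, Nop14, Rrp12 and Utp6 included 1. Those of Utp18 (1.04 to 1.46), Nop9 (1.06 to 1.72) and Wdr43 (1.07 to 2.05) then also lay above 1.

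For the other 13 small subunit factors the interval included 1 with TMM. Below 1 were Utp14b (0.805), Rrp7a (0.861), Utp20 (0.892), Utp14a (0.94) and Wdr36 (0.972). Above 1 were Wdr75 (1.01), Utp11l (1.04), Utp15 (1.07), Utp18 (1.09), Rrp9 (1.15), Utp23 (1.19), Nop9 (1.19) and Wdr43 (1.31). Rrp9 is a protein of the U3 snoRNP, which guides the cleavages, and Utp14b is a retrocopy of Utp14a. For Utp14a against Utp14b the quotient of counts was 1.17 times as large in db/db as in db/m, with an interval that included 1 (0.753 to 1.81).

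Of the 12 large subunit factors compared, 4 had ratios above 1 and 8 below, with a median log2 ratio of -0.11. Gnl3 (chr14:31012433-31019131), which encodes the GTP-binding protein nucleostemin, had 207 db/db and 104 db/m counts and a ratio of 1.57 (1.24 to 2.01). Nop16 had 151 and 86 counts and a ratio of 1.39 (1.06 to 1.83). These were the 2 large subunit factors with an interval above 1 with TMM. Below 1 lay the intervals of Rrp1b (0.655, 0.468 to 0.915), Bop1 (0.814, 0.685 to 0.969) and the RNA helicase gene Ddx21 (0.826, 0.732 to 0.932), which had 555 and 531 counts. With total counts the intervals of Rrp1b, Bop1 and Ddx21 included 1. Those of Pes1 (1.13 to 1.67) and Ebna1bp2 (1.01 to 1.74) then also lay above 1.

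The complex of Pes1, Bop1 and Wdr12, which processes the precursor of the large subunit RNAs, was uneven. Pes1 had 267 db/db and 174 db/m counts, with a ratio of 1.21 (0.998 to 1.48). Bop1 had 271 and 263 counts and Wdr12 had 105 and 102, each with a ratio of 0.814 (for Wdr12 0.614 to 1.08). Pes1 against Bop1 gave 1.49 (1.14 to 1.94), and Bop1 against Wdr12 gave 1 (0.717 to 1.4). With TMM the remaining factors had intervals that included 1. Their ratios were 0.895 for Nip7, 0.914 for Rrp1, 0.938 for Wdr74, 0.993 for the RNA methyltransferase gene Nop2 and 1.17 for Ebna1bp2. Rrp8, which methylates large subunit RNA and belongs to a complex that silences ribosomal DNA, had 86 and 65 counts and a ratio of 1.05 (0.749 to 1.47).

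Further genes of the pathway were seldom called. Lists of further genes of RNA polymerase I, of both subunits, of snoRNP assembly, of the RNA exosome and of RNA polymerase III held 151 genes outside the 49, of which 142 were compared. Of these, 0 were called higher and 2 lower, beside 3.83% and 4.04% of all genes, and their median log2 ratio was 0.02. With total counts neither was called and 1 gene of the RNA polymerase III list, Crcp, was called higher. The 2 were Znrd1, a small subunit of RNA polymerase I (43 and 71 counts, 2.09-fold lower, 1.41 to 3.13), and Imp3, a protein of the U3 snoRNP (85 and 149 counts, 2.22-fold lower, 1.69 to 2.93). By list, the median was 0.06 for 11 other RNA polymerase I genes, 0.06 for 39 other small subunit factors and -0.07 for 46 other large subunit factors. It was 0.03 for 12 snoRNP assembly genes, 0.08 for 12 exosome genes and 0.05 for 22 genes of RNA polymerase III. Of the 11 other RNA polymerase I genes, 6 had ratios above 1 and 5 below after TMM scaling. Those below were Znrd1, Twistnb (0.741), Cd3eap (0.823), Taf1c (0.853) and Taf1d (0.989).

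**Figure D5:**
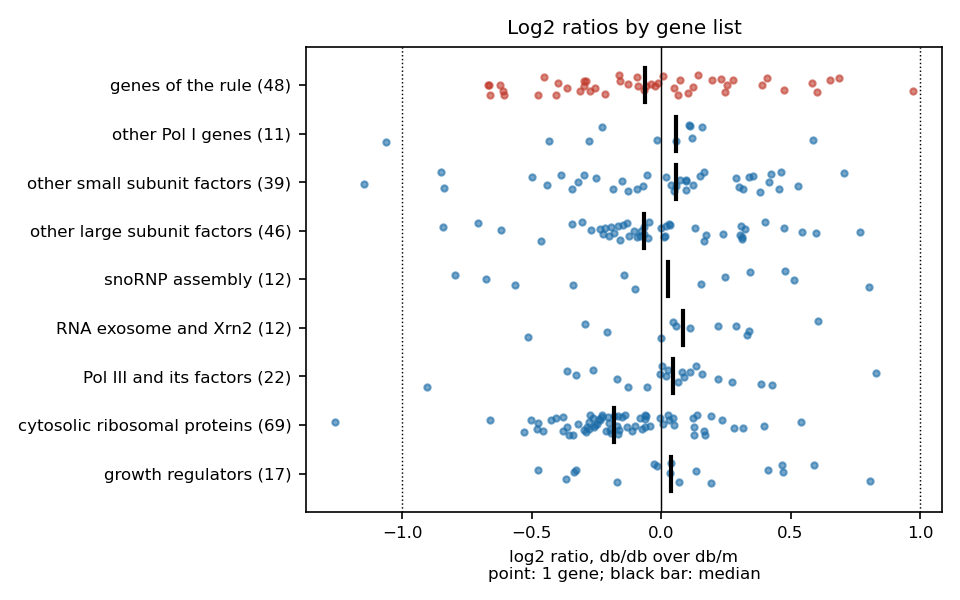
Log2 ratio of db/db over db/m (x axis) for single genes (points) of the 48 genes of the rule and of 8 other lists, with the number of genes compared in parentheses; black bars are medians and dotted lines mark 2-fold. After TMM scaling the medians lie between -0.18 (cytosolic ribosomal proteins) and 0.08 (RNA exosome and Xrn2). Single points lie left of the dotted line at -1 for Znrd1, Imp3 and Rpl15.

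Regulators of cell growth did not pass the calling rule. Of 17 growth regulators compared, 0 were called, with a median log2 ratio of 0.04. Of all genes compared 7.87% were called, a share at which few calls would fall among 17 genes. After TMM scaling the interval lay above 1 for 5 of the 17 and below 1 for 3 (20.7% and 18.2% of all genes). Those not detailed below are Rps6kb1 and Mxd4 (above 1) and Eif4ebp1 and Mlx (below 1). Myc, an activator of many ribosome biogenesis genes, had 376 db/db and 383 db/m counts and a ratio of 0.776 (0.671 to 0.897) with TMM. It was also among the 17 immediate early genes compared, all of which had ratios below 1. With total counts every log2 ratio, that of Myc included, was larger by 0.175. Mtor, the kinase that couples nutrients to growth, had 93 and 42 counts and a ratio of 1.75 (1.2 to 2.58). Tsc1 and Tsc2, whose products restrain that kinase, both had ratios of 1.38 (1.19 to 1.61 and 1.23 to 1.55). The cytosolic ribosomal protein genes, whose products the members assemble, had 1 of 69 called (Rpl15, lower), against 7.87% of all genes. Their median log2 ratio was -0.18 with TMM and -0.007 with total counts. With TMM the interval lay above 1 for 5 of the 69 and below 1 for 39 (20.7% and 18.2% of all genes). The row Rn18s-rs5, which is classed as a pseudogene and named after ribosomal RNA, had 25731 and 16769 counts (ratio 1.21, 1.19 to 1.24) in libraries depleted of ribosomal RNA.

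All 49 genes had a position in RefSeq's annotation of GRCm38.p6, on 19 chromosomes. Another protein-coding gene overlapped 12 of them (Nop56, Nhp2, Dkc1, Wdr12, Bop1, Ebna1bp2, Gnl3, Polr1e, Rrp8, Utp14b, Rrp7a and Nop9). These values are uncertain where the overlap holds exons, since the sources used here do not say how reads on shared bases were counted. Nhp2 (ratio 0.718) overlaps the end of Rmnd5b, which had 135 and 59 counts and a ratio of 1.81 (1.32 to 2.5), in the other direction. Npm1 and other members with related copies elsewhere in the genome are also uncertain. In the same table Rps2, a ribosomal protein gene with many processed copies, had 0 counts in both libraries.

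Within 6 members, namely Nop56, Nop58, Dkc1, Ncl, Gnl3 and Wdr43, RefSeq places 18 snoRNA genes. Those with a row in the count table had at most 9 counts in a library, too few to show a difference. Across the 48 members the log2 ratio had a Spearman rho of 0.02 with the length of the gene on the chromosome and of -0.004 with the summed counts, descriptions over genes that share both libraries. No gene was ranked by level against another, since transcript lengths were not used here, and the quotients of gene pairs above are quotients of counts to be read only between the libraries.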

How the data were processed

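RNA sequencing counts of 2 islet libraries (db/db and db/m, 1 per group by title and genotype label) were used. Per the submitters' processing notes, HISAT2 2.0.4 aligned the reads, with mm10 and GRCm38 named as builds. The authors deposited raw counts for each gene; their counting program, annotation, strand setting and handling of multiply matching reads are not stated. Counts were scaled with TMM factors (edgeR 4.0.16, R 4.3.3), so that 1 count stood for 0.0516 CPM (db/db) and 0.0653 CPM (db/m). Ratios have exact 95% Clopper-Pearson counting intervals (Python 3.11.15, scipy 1.17.1), and within-library gene ratios have exact conditional intervals. PCR copies are not independent molecules, so intervals cover counting error only. A gene was called at 2-fold or more, a mean unscaled CPM of at least 1 and an interval excluding 1. The code was tested on simulated data. Alternatives included total counts, DESeq2 1.42.0 size factors, other filters, folds and intervals. All members were named by role, with counts for the 4 highest, the 4 lowest and the polymerase, snoRNP and phosphoprotein groups, and others by range. Counts given for further members and for Myc, Mtor, Tsc1, Tsc2, Crcp and Rmnd5b were added after values were seen. Members and lists were chosen with earlier results of these data known. Motifs were searched in RefSeq promoter windows. Figures were drawn with matplotlib 3.10.9.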

Additional observations from a re-analysis of the deposited data

How the results depend on the processing

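No paired analysis was possible because each group has 1 library, and for the same reason no library could be left out. With DESeq2 size factors, and without a filter on low counts, 0 members were called. The former moved every log2 ratio by only -0.008, and the latter added only Rrp15, with 8 counts in each library. Neither result therefore says much about stability. A filter of 10 CPM, a 4-fold limit, an interval wholly beyond 2-fold and a Bonferroni interval are stricter than a rule that called none, so their counts of 0 say nothing about stability. With total counts, and with total counts outside the acinar and hormone genes, 1 member (Rrp36) was called higher and 0 lower, and the median log2 ratio of the members was 0.11 and 0.10 in place of -0.06, since these scalings raise every ratio. The snoRNP assembly list gave no median at 10 CPM, since none of its genes passed that filter. At a limit of 1.5-fold 2 members were higher (Rrp36 and Gnl3) and 5 lower (Fbl, Utp3, Polr1d, Rrp1b and Polr1e), beside 889 and 914 of all genes (8.63% and 8.87%). Over all genes, 395 were higher and 416 lower, against 564 and 277 with total counts, 745 and 814 without a filter, 36 and 95 at 10 CPM, 78 and 76 at 4-fold, 99 and 137 with the interval beyond 2-fold and 138 and 213 with the Bonferroni interval. Among the further pathway genes, Znrd1 and Imp3 lost their calls with both total-count scalings and at 10 CPM. The same held at 4-fold and with the interval beyond 2-fold, and Znrd1 also lost its call with the Bonferroni interval. Without a filter 1 gene of the other large subunit list was called lower. Depth limits the members with few counts: Nop56, with 63 counts over both libraries, could differ by up to 2.7-fold within counting error.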
